A study of Mus musculus with 6 samples.

Results

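This account covers 9 genes of inflammatory signalling in mouse liver, namely the cytokine genes Tnf, Il1b and Il1rn, the chemokine genes Ccl2, Cxcl1 and Cxcl10, and the feedback and signalling genes Nfkbia, Socs3 and Stat3. They were taken by symbol from the 17097 genes that had a probe set annotated to exactly 1 gene symbol, and they held 12 probe sets of 45141 on the array. Il1rn had 3 probe sets, Stat3 had 2 and the others had 1 each. The tested livers came from Nrg4 knockout (KO) mice, which lack neuregulin 4, a growth factor that brown fat secretes and that signals through ErbB receptors, and the livers they were set against came from wild-type (WT) mice. Both genotypes are labelled C57BL/6, and both ate a high-fat diet for 8 weeks starting at 3 months of age and were harvested in the random-fed state, so no lean livers enter any value. Each genotype had 3 arrays, and each array held an independent pool of total liver RNA. Neither the number of mice in a pool, nor their sex, nor how the knockout allele was made is given in the sources used here. The p-values therefore measure the spread between pools, and RNA of single animals was averaged before it was measured.

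Tumour necrosis factor and interleukin-1 beta bind receptors that switch on the kinases of the NF-kB pathway. These kinases mark the inhibitor encoded by Nfkbia for destruction, which frees NF-kB to enter the nucleus. NF-kB then raises chemokine genes, which draw leukocytes into tissue, and Nfkbia itself, which closes the loop. Cytokines of the interleukin-6 family act through STAT3, which in hepatocytes drives acute phase genes and its own inhibitor Socs3. In liver the cytokine genes are transcribed largely in Kupffer cells and other leukocytes, while Stat3, Socs3 and Nfkbia are also transcribed in hepatocytes. In RNA of whole liver, fewer cells of a type and less RNA per cell cannot be told apart.

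The promoters of 4 of the genes, 2 chemokines and 2 feedback inhibitors, are printed to show where the letters searched for lie in them. Of the 9 genes, 8 had a window among the RefSeq promoters of GRCm38.p6, in all 10 windows since Il1rn had 3, and Ccl2 is named only. Each stretch below is the 250 bases before an annotated start, 5′ to 3′ on the strand of the gene. Capitals mark a match on either strand to GGG, any 5 bases and CC for NF-kB, to TTC, any 3 bases and GAA for STAT factors, or to GAAA, any 2 bases and GAAA for interferon response factors, and overlapping matches form 1 run of capitals.
Cxcl1: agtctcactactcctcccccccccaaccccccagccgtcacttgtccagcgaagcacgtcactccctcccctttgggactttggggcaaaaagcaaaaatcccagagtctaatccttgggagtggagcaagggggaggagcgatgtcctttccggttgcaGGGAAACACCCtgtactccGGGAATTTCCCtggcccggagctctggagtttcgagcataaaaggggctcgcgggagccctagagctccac
Cxcl10: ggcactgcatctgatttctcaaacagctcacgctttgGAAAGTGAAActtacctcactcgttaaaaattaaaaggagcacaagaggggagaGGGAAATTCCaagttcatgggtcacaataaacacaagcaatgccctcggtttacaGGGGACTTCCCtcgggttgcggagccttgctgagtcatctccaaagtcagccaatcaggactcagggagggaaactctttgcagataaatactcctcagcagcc
Nfkbia: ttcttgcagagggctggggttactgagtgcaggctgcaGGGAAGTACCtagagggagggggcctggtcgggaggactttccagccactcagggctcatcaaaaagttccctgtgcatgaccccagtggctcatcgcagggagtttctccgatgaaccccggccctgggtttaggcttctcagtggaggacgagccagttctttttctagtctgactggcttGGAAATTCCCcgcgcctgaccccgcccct
Socs3: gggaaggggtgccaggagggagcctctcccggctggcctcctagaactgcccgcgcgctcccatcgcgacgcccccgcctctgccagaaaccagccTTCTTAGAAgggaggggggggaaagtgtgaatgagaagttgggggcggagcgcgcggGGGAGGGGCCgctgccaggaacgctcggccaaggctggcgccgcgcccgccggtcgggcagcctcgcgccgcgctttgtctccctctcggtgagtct
The Cxcl1 stretch lies at chr5:90890995-90891244 on the plus strand and the Cxcl10 stretch at chr5:92348890-92349139 on the minus strand. The Nfkbia stretch lies at chr12:55492648-55492897 and the Socs3 stretch at chr11:117969367-117969616, both on the minus strand. In Cxcl1 the second run of capitals began 71 bases before the start, and in Nfkbia the second run began 29 bases before it. Cxcl10 alone among the 8 genes held the interferon response match, GAAAGTGAAA, and Socs3 alone held a STAT match, TTCTTAGAA. The NF-kB match was present in 6 of the 8 genes, Il1b and Stat3 being without one in these windows. That match is loose, since 45.8% of all 32851 RefSeq windows searched over the same length held it, against 7.02% for the STAT match and 2.98% for the interferon response match. A match is a string of letters and not a measured binding site.

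Nrg4 went with the labelled genotypes, since it read 2.56, 2.43 and 2.64 in KO against 4.94, 4.79 and 4.77 in WT on the log2 scale. Alb, the hepatocyte marker, lay between 12.30 and 12.41 in all 6 arrays. All values here are the authors' log2 RMA values, in which 1 unit is a doubling of signal, and they are compared between arrays for 1 probe set at a time and not between probe sets. Array medians lay between 2.98 and 3.04. Averaged over the actin and Gapdh controls, 5′ minus 3′ signal, a measure of RNA integrity, was -1.31, -0.70 and -0.65 in KO replicates 1 to 3 against -0.95, -0.78 and -0.96 in WT. The 5′ probe set of 18S ribosomal RNA read 6.06, 6.71 and 5.61 in KO against 8.12, 8.80 and 8.69 in WT. With 3 arrays per genotype, an exact permutation test of a single gene cannot give a p below 0.1, so genes were tested with limma across all genes.

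Several of the 9 genes gave faint signal. No probe set fell under the dim limit of 2.66, the 40th percentile of probe set means, so all 9 genes were among the 12466 tested. That limit is no floor of detection, since control probe sets for nonspecific signal reached a mean of 2.64 for the second brightest of 23. Of the 12 probe sets, 5 lay within 2-fold of that control and count here as near background: Tnf, with a mean over the 6 arrays of 3.01, Ccl2 at 3.09, Socs3 at 3.47, the dimmest of the Il1rn probe sets at 3.33 and the dimmer Stat3 probe set at 2.95. The brightest nonspecific control, at 5.59, exceeded all but the main probe sets of Nfkbia, Stat3 and Cxcl1, whose means were 7.36, 6.91 and 5.72. The second brightest control itself read 2.51, 2.81 and 2.91 in KO against 2.63, 2.50 and 2.50 in WT.

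None of the 9 genes differed between the genotypes past the threshold. At a limma adjusted p under 0.05, 0 of 9 passed, where 0.0401% of all genes tested did (0.016% higher in KO and 0.0241% lower), and 0 of 9 had an unadjusted p under 0.05, where 9.55% of all genes did. By the mean, 4 of the genes were higher in KO and 5 lower, where 63.4% of all genes tested were higher. Their log2 changes, KO minus WT, ran between -0.24 and 0.24 with a median of -0.0073, and the median over all genes tested was 0.045. The median size of the change, without its sign, was 0.12 for the 9 genes and 0.096 for all genes tested. No alternative processing called any of them. In data simulated with the spread of these arrays, limma missed most changes of 0.5 log2 units, a size above that of any of the 9, so the lack of calls does not show that the genotypes were alike.

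Tnf encodes tumour necrosis factor, the cytokine at the head of the NF-kB cascade. It read 2.90, 3.26 and 3.09 in the KO pools, against 3.16, 2.82 and 2.85 in the WT pools. KO replicate 2 was highest and WT replicate 2 lowest, and the genotypes overlapped. The log2 change was 0.14 (SE 0.13, n = 3 pools per genotype, limma adjusted p = 0.769). Its highest pools, KO replicate 2, WT replicate 1 and KO replicate 3, were also the 3 highest for the second brightest nonspecific control, whose part in these values was not tested.

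Il1b encodes interleukin-1 beta, a cytokine made by activated macrophages. Its values were 4.07, 4.12 and 4.39 in KO, against 4.13, 3.77 and 3.96 in WT. KO replicate 3 stood highest and WT replicate 2 lowest, while WT replicate 1 lay above both other KO pools. The log2 change of 0.24 was the highest among the 9 genes and did not pass (SE 0.13, limma adjusted p = 0.581).

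Il1rn encodes the antagonist that occupies the interleukin-1 receptor without signalling. Its brightest probe set read 4.54, 4.42 and 4.43 in KO, against 4.43, 4.71 and 4.43 in WT. Apart from WT replicate 2 and KO replicate 1, the pools lay within 0.01 of each other, and the log2 change was -0.05 (SE 0.10, limma adjusted p = 0.899). The other probe sets gave changes of -0.0033 and 0.36 (limma adjusted p = 0.995 and 0.702 in the fit of every probe set, where 0.0368% of probe sets passed). The change of 0.36 came from KO replicate 3 alone, at 4.22, since the other KO pools read 3.11 and 3.21 and the WT pools 2.92, 3.32 and 3.22. The 3 probe sets thus placed different pools highest, and the one with the large value in KO replicate 3 lay near background.

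**Figure D1:**
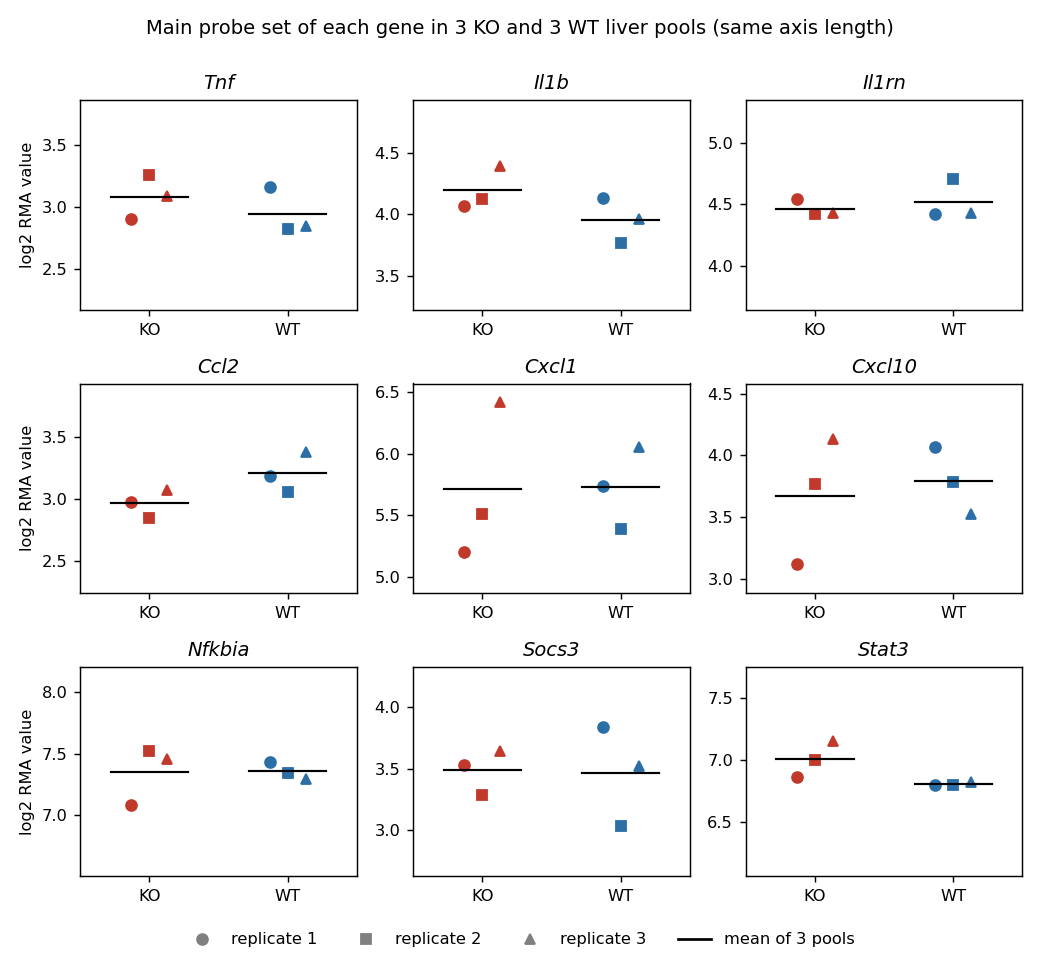
Log2 RMA value (y axis) of the main probe set of each gene in 3 KO pools (red, left) and 3 WT pools (blue, right), with symbols for the replicate number and a bar for the mean; every panel spans the same length on the log2 scale. The genotypes overlapped for each gene but Stat3, and Cxcl1 and Cxcl10 were spread over more than 1 unit within KO.

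Among the chemokines, Ccl2, which attracts monocytes through the receptor CCR2, read 2.97, 2.84 and 3.08 in KO, against 3.19, 3.06 and 3.38 in WT. KO replicate 3 and WT replicate 2 differed by 0.02 and were the only overlap. The log2 change of -0.24 was the lowest among the 9 genes, and it missed the threshold (SE 0.11, limma adjusted p = 0.532). The direction was the same when each array in turn was left out, with log2 changes between -0.32 and -0.16. Both genotypes lay close to background, so a change in the underlying RNA would be compressed in these values.

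Cxcl1, a neutrophil attractant, read 5.20, 5.51 and 6.42 in KO, against 5.74, 5.39 and 6.05 in WT. Replicate 3 was highest in each genotype, and KO replicate 1 was lowest of all. The means of 5.71 ± 0.63 in KO and 5.73 ± 0.33 in WT (SD, n = 3) were nearly alike, with a log2 change of -0.015 (SE 0.29, limma adjusted p = 0.99). Within KO the highest pool exceeded the lowest 2.32-fold. The sign of the change rested on single pools, at 0.24 without KO replicate 1 and -0.37 without KO replicate 3.

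Cxcl10, an interferon-induced attractant of activated T cells, read 3.12, 3.77 and 4.13 in KO, against 4.06, 3.78 and 3.52 in WT. The highest and the lowest pool of all 6 both belonged to KO, replicates 3 and 1, and they differed 2.02-fold. The log2 change was -0.12 (SE 0.24, limma adjusted p = 0.906), and it was 0.16 without KO replicate 1. Cxcl1 and Cxcl10 were alike in being lowest in KO replicate 1 and highest in KO replicate 3, while in WT their highest pools differed.

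Nfkbia, whose product retains NF-kB in the cytoplasm, lay far over background. It read 7.08, 7.52 and 7.45 in KO, against 7.43, 7.35 and 7.30 in WT. KO replicate 1 was lowest and the other KO pools highest, so that the WT pools fell between them. The log2 change was -0.0073 (SE 0.12, limma adjusted p = 0.988), with a 95% interval of -0.29 to 0.28.

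Socs3 encodes an inhibitor of JAK kinases that STAT3 induces. It read 3.53, 3.29 and 3.64 in KO, against 3.84, 3.03 and 3.52 in WT. The WT pools held both extremes, 1.75-fold apart, and the log2 change was 0.021 (SE 0.19, limma adjusted p = 0.982). The direction of a value this close to 0 varied with the pools used, between -0.19 without WT replicate 2 and 0.21 without WT replicate 1.

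Stat3 was the exception to the overlap. Its main probe set read 6.86, 7.00 and 7.16 in KO, against 6.79, 6.80 and 6.82 in WT. Every KO pool lay above every WT pool, by a gap of 0.04 between the nearest. Such a separation in either direction was found for 15.6% of all genes tested, with KO higher for 11.7% and with KO lower for 3.92%, so 1 of 9 is near the background. The log2 change of 0.20, a 1.15-fold difference, did not pass (SE 0.10, limma adjusted p = 0.55, with adjusted p between 0.216 and 0.959 over the alternatives). The WT pools lay within 0.03 of each other, a tighter spread than that of the KO pools. The other Stat3 probe set, near background, read 3.03, 2.79 and 2.77 in KO against 3.04, 3.07 and 2.99 in WT, a change of -0.17 in the opposite direction (SE 0.10, limma adjusted p = 0.632). Averaging both probe sets gave a log2 change of 0.016.

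**Figure D2:**
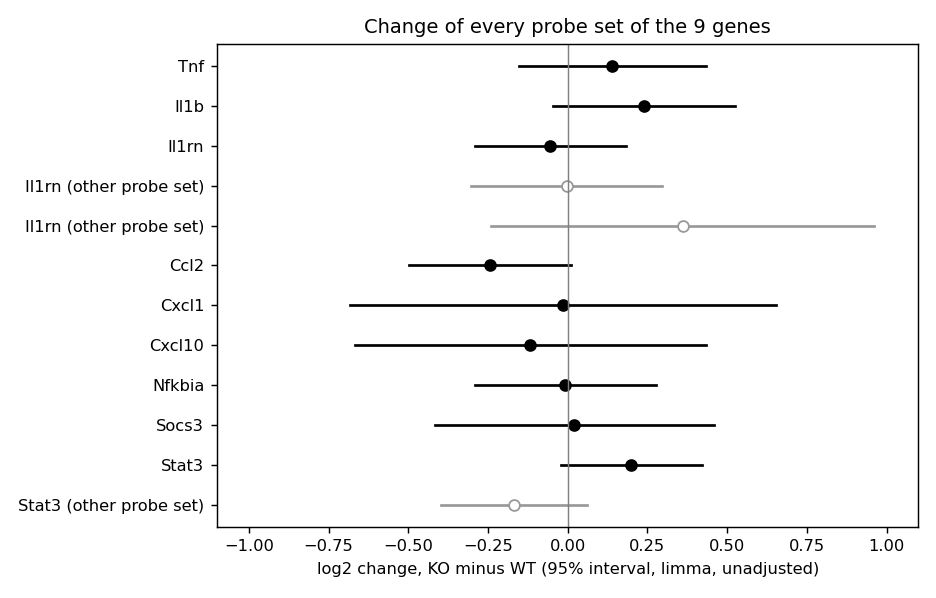
Log2 change, KO minus WT (x axis), with the unadjusted 95% limma interval for each of the 12 probe sets, black for the main probe set of a gene and grey for the others. Every interval crossed 0, and the intervals of Cxcl1 and Cxcl10 were the widest among the main probe sets.

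The intervals give the range of change that limma places on each gene, and not the size of change that its test would find. Since limma draws the spread of each gene toward that of all genes, the intervals of the widely spread Cxcl1, Cxcl10 and Socs3 are narrowed. For all 9 genes the 95% interval of the main probe set, not adjusted for the number of genes, lay within 1 log2 unit, and for 7 of the 9 it lay within a 1.5-fold change either way. The exceptions were Cxcl1, whose interval ran between a 1.60-fold fall and a 1.57-fold increase, and Cxcl10, between a 1.59-fold fall and a 1.35-fold increase. For Tnf a rise of up to 1.35-fold and for Il1b of up to 1.44-fold lay inside the interval. These bounds hold for array signal, which understates the change of RNA for probe sets near background.

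Pools of 1 genotype differed widely for some of these genes. The residual SD, the spread of pools about the mean of their genotype, exceeded the size of the change between genotypes for 6 of the 9 genes, the others being Il1b, Ccl2 and Stat3. Over all genes tested the median residual SD, 0.13, likewise exceeded the median size of the change, 0.096. The residual SD was 0.50 for Cxcl1, 0.41 for Cxcl10 and 0.31 for Socs3, against that median of 0.13. Cxcl1 stood at the 99.5th percentile of all genes in this measure, Cxcl10 at the 98.9th and Socs3 at the 96.1st. Among genes with a mean within 0.5 units of their own, the percentiles were 99.3, 98.7 and 95.5. Nfkbia, with a residual SD of 0.17, stood at the 83.7th percentile among genes of its level. Stat3 and Il1rn lay under the median of all genes, with 0.10 and 0.12. The study's pools hold an unstated number of mice, so the spread between single animals was not measured.

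**Figure D3:**
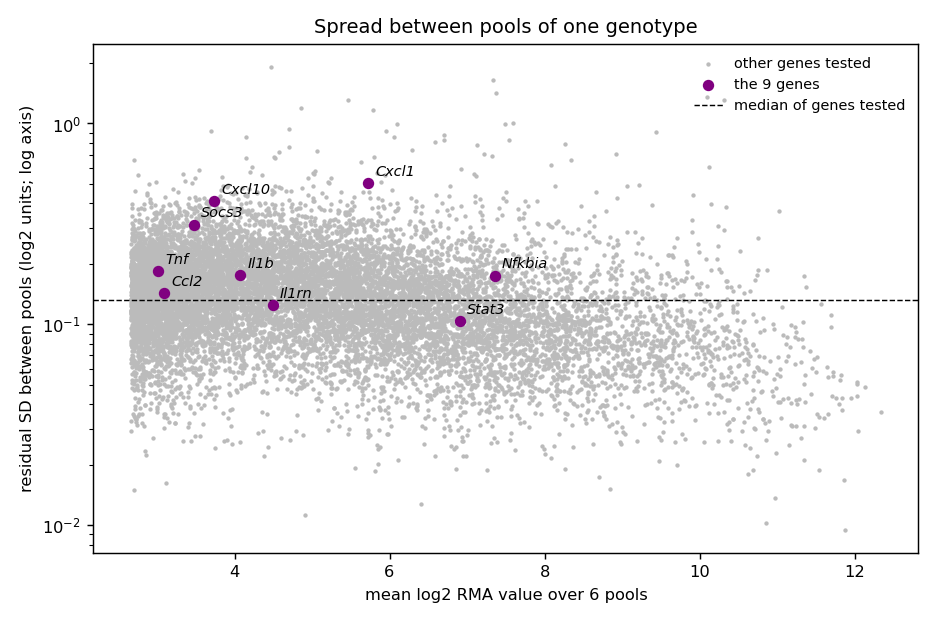
Residual SD between pools of the same genotype (y axis, log2 units on a log axis) against the mean log2 RMA value over the 6 arrays (x axis) for all 12466 genes tested (grey) and the 9 genes (purple); the dashed line is the median of all genes. Cxcl1, Cxcl10 and Socs3 lie near the upper edge, and Stat3 lies under the line.

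Single pools were high or low for several genes at once. KO replicate 3 held the highest value of all 6 pools for Il1b, Cxcl1, Cxcl10 and Stat3, and it was lowest of the KO pools for none of the 9 genes. The share of all genes tested with this pool highest was not counted. KO replicate 1 was the lowest KO pool for 6 genes, namely Tnf, Il1b, Cxcl1, Cxcl10, Nfkbia and Stat3. In WT, replicate 1 was the highest for 5 genes and replicate 2 the lowest for 5. The mean of the 9 genes, each centred on its own mean over the 6 arrays, was -0.17, -0.01 and 0.21 in KO replicates 1 to 3, against 0.10, -0.13 and -0.0017 in WT replicates 1 to 3. KO replicate 1 was also the array with the lowest 5′ minus 3′ signal. Without it, the median log2 change of the 9 genes was 0.16, and 0 of 9 passed.

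Markers of leukocytes varied between the same pools. The mean level of the 4 neutrophil markers tested of 7 listed, S100a8, S100a9, Camp and Csf3r, was 3.18, 3.10 and 3.70 in KO against 3.15, 2.99 and 3.31 in WT, highest in replicate 3 of each genotype as Cxcl1 was. S100a8 and S100a9 each followed that order, whereas in WT Camp was highest in replicate 1, and Csf3r was highest in replicate 1 of both genotypes. Of these markers, S100a8, Camp and Csf3r lay near background, within 2-fold of the second brightest nonspecific control. S100a8 exceeded the dim limit only in replicate 3 of each genotype, at 3.70 in KO and 3.01 in WT. In its other pools it read 2.53 at most, so its order rests on signal near background. The defining neutrophil markers are thinly covered, since Mpo lay under the dim limit and Ly6g and Retnlg are not analysed here. The mean of the 12 macrophage and Kupffer cell markers, all tested, was 6.16, 6.80 and 6.92 in KO against 6.31, 6.11 and 6.26 in WT, so KO replicate 1 lay among the WT pools. All 12 of these markers had a higher mean in KO, where 63.4% of all genes tested did. Their median log2 change was 0.34, and 0 passed. Of 7 monocyte markers 3 were tested, with levels of 4.23 to 4.56 in KO against 4.19 to 4.46 in WT. KO replicate 3 also had the highest mean level of the 6 pools for markers of sinusoidal endothelium, stellate cells and B lymphocytes. The same held for each pathway list described below except STAT3 and acute phase targets, highest in WT replicate 3. Hepatocyte and monocyte markers were highest in KO replicate 2, and T and NK lymphocyte markers in WT replicate 3. The part of these cells in the values of the 9 genes was not tested.

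**Figure D4:**
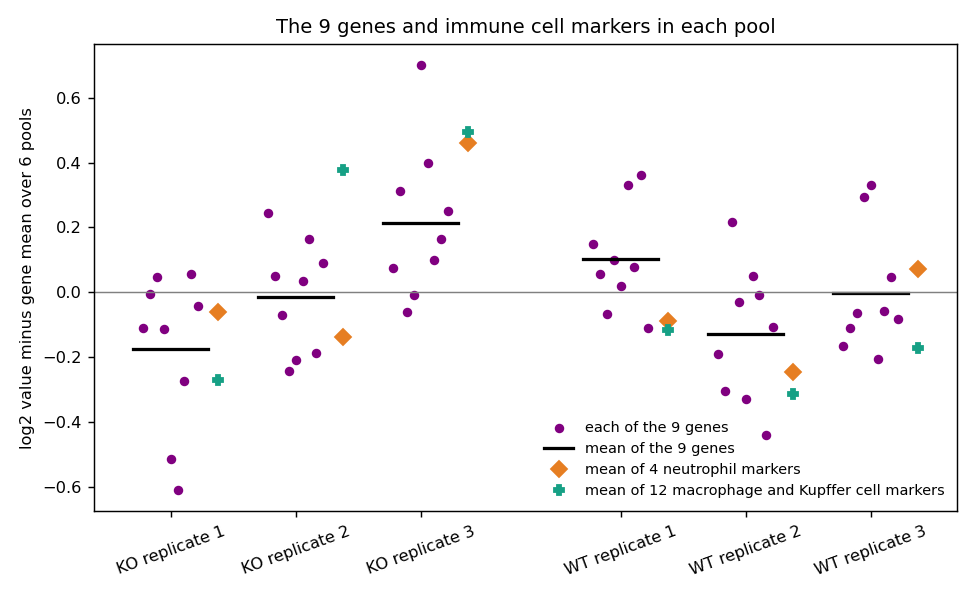
Log2 value minus the mean of the gene over the 6 arrays (y axis) for each of the 9 genes (purple) in each pool (x axis, KO pools left), with their mean (black bar), the mean of 4 neutrophil markers (orange) and the mean of 12 macrophage and Kupffer cell markers (green). KO replicate 3 had the highest mean of the 9 genes and of both marker lists.

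The genes whose values over the 6 arrays came nearest to each of the 9 were found by the root mean square difference after centring, among all genes tested. This is a description over 6 arrays. For Cxcl1 they were Ngp and Ly6e, at differences of 0.18 and 0.19 where Cxcl1 itself varied by 0.41 about its mean. For Cxcl10 they were Spata13 and Zfp467, at 0.075 and 0.077, and for Socs3 Spats2 and Col5a1, at 0.067 and 0.087. Stat3 was nearest to Ctsz and Lztr1, Nfkbia to Rc3h2 and Upp2, and Il1b to Psmb10 and Vps11. Tnf was nearest to Msto1 and Baz2b, Il1rn to 9130015A21Rik and Usp46, and Ccl2 to D030018L15Rik and Trh. Cxcl1 had the loosest match of the 9.

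The surrounding pathway was described with 8 lists of 135 genes in all, of which 102 were tested. None passed at a limma adjusted p under 0.05, and 15 had an unadjusted p under 0.05, 14.7% of those tested where all genes gave 9.55%. The genotypes did not overlap for 16 genes with KO higher and 3 with KO lower, together 18.6% where all genes gave 15.6%. The median log2 change of the 102 genes was 0.06, and that of all genes 0.045.

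Of the receptors, 10 of 14 were tested, with a median log2 change of 0.14 and 0 called. The genotypes did not overlap for 4 of the 10, Cxcr2 among them with KO lower, where 15.6% of all genes tested did not. Osmr, a receptor chain for oncostatin M, a cytokine that signals through STAT3, had the smallest p of the 102 genes. It read 3.96, 4.25 and 4.44 in KO, against 3.54, 3.34 and 3.43 in WT. Every KO pool lay above every WT pool, and the log2 change of 0.78, 1.71-fold, missed the threshold (SE 0.13, limma adjusted p = 0.102). It passed without KO replicate 1, at 0.91 (adjusted p = 0.0373), and with array weights, at 0.88 (adjusted p = 0.0251), and over the 14 alternatives that tested it the adjusted p lay between 0.0251 and 0.409. When the probe sets of a gene were averaged, Osmr fell under the dim limit and was not tested, so its change rests on the main probe set. The WT values of that probe set lay within 2-fold of the second brightest nonspecific control. Ccr2, the receptor of the Ccl2 product, stood at 0.22 close to the dim limit, and Tnfrsf1b, a receptor of tumour necrosis factor, at 0.16.

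Among NF-kB subunits and activating kinases, 10 of 16 genes were tested and 0 were called, with a median of 0.10. Nfkb2, a subunit of the noncanonical pathway, stood at 0.25, Traf2, an adaptor of the receptors of tumour necrosis factor, at 0.45 and Ikbkg, the regulatory subunit of the kinase complex, at -0.20 (limma adjusted p = 0.428, 0.454 and 0.52). When its probe sets were averaged Ikbkg turned to 0.017, the only one of the 23 named pathway genes to turn under any alternative. Relb and Rel lay under the dim limit. The inhibitors and feedback genes other than Nfkbia, 13 of 16 tested, had a median of 0.0012. In KO 7 had a higher and 6 a lower mean, where 63.4% of all genes tested were higher. Nfkbid, near background, stood at -0.22, Birc3 at 0.19 and Bcl3 at -0.24, with limma adjusted p-values of 0.591 to 0.63. Tnfaip3, the deubiquitinase A20, had the highest change of the list, 0.23, with the genotypes overlapping, and was not among the 3 with the smallest p.

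The JAK-STAT list, with 17 of 19 genes tested, had a median of 0.085 and 0 called. Socs6 stood at 0.41, Jak1 at 0.20 and Stat2 at -0.13, with limma adjusted p-values of 0.52 to 0.729, and averaging its probe sets brought Jak1 to 0.0091. Targets of STAT3 and acute phase genes, 19 of 20 tested, had a median of -0.08. Of them 12 had a lower mean in KO, where 63.4% of all genes tested had a higher one. Steap4, a metalloreductase, had a log2 change of 0.45 (SE 0.10, limma adjusted p = 0.201), at 8.62, 8.56 and 8.71 in KO against 8.12, 8.09 and 8.32 in WT, with no overlap. Cebpd, a transcription factor of the acute phase, stood at 0.35 (limma adjusted p = 0.412), also without overlap, and Bcl3 is listed above. Of the 19 genes tested only these 2, Steap4 and Cebpd, did not overlap, where 15.6% of all genes tested did not. The lowest changes of the list were those of Orm2, Saa3, Saa2, Bcl3 and Lcn2, in that order. All but Bcl3 encode secreted acute phase proteins, and these were named after their values were seen. Orm2, an orosomucoid, read 6.88, 6.51 and 7.63 in KO against 5.97, 7.46 and 9.77 in WT, a log2 change of -0.73 (SE 0.79, limma adjusted p = 0.81). Saa3, a serum amyloid A, read 6.37, 5.96 and 6.76 in KO against 6.17, 6.70 and 8.29 in WT, a change of -0.69 (SE 0.47, limma adjusted p = 0.671). Saa2 stood at -0.37 and Lcn2, an iron-sequestering lipocalin, at -0.24 (limma adjusted p = 0.903 and 0.956). WT replicate 3 was the highest of the 6 pools for these 4 genes of secreted proteins. Without it the changes were 0.29 for Orm2, -0.072 for Saa3, 0.26 for Saa2 and 0.90 for Lcn2. Bcl3 differed, being highest in WT replicate 1, and its change without WT replicate 3 was -0.34. The mean level of this list spread widely within WT, at 8.41, 8.23 and 8.61 in KO against 8.05, 8.47 and 9.01 in WT.

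Most other cytokine genes were too dim to test. Of 16 listed, 6 were tested, and Il6, Il10, Il12b, Il15, Il33, Ifng, Lif, Csf2 and Tgfb1 lay under the dim limit. Tnfsf10, which encodes the death ligand TRAIL, stood at 0.40, Il18 at 0.54 and Lta at -0.20. Their limma adjusted p-values were 0.412, 0.421 and 0.523, and Tnfsf10 and Lta lay near background. Il18, a cytokine made by Kupffer cells, read 6.60, 6.79 and 6.83 in KO against 6.53, 6.34 and 5.75 in WT, without overlap. Of the 6 genes tested 2 did not overlap, Il18 and, with KO lower, Lta, where 15.6% of all genes tested did not.

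Other chemokines had the highest median of the 8 lists, 0.22, and 0 were called. By the mean, 11 of 13 tested genes were higher in KO, where 63.4% of all genes tested were. Ccl6, a macrophage chemokine of rodents, stood at 0.42 (SE 0.10, limma adjusted p = 0.247), with 6.83, 7.11 and 7.03 in KO against 6.65, 6.56 and 6.49 in WT. Ccl5, which attracts T cells and monocytes, stood at 0.49 (limma adjusted p = 0.374) and Cxcl16 at 0.23 (limma adjusted p = 0.517). In Ccl6, Ccl5 and Cxcl16, named for the smallest p in the list, the KO pools lay above the WT pools without overlap. No other gene of the 13 tested was without overlap, so the list had 3 of 13, where 11.7% of all genes had KO higher without overlap. Ccl3, Ccl4, Ccl22, Cxcl2 and Cxcl5 lay under the dim limit. Of the 12 macrophage markers described above, 3 likewise had every KO pool above every WT pool, where 11.7% of all genes did. So did 3 of 8 markers of sinusoidal endothelium and 3 of 7 of stellate cells. By the mean, 7 of those 8 and all 7 were higher in KO, where 63.4% of all genes tested were. Hepatocyte markers split into 4 higher and 4 lower, and T and NK lymphocyte markers into 2 and 2. The part of these cells in the chemokine values was not tested.

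Interferon-responsive genes, named here as companions of Cxcl10, were tested for 16 of 19 members, with a median of 0.089 and 0 called. Irf8 stood at 0.46, Oasl1 at 0.22 and Ifit3 at 0.25, with limma adjusted p-values of 0.511 to 0.566. Irf8 lay near background, with means of 3.38 in KO and 2.92 in WT. Their mean level was 5.56, 5.39 and 5.78 in KO against 5.52, 5.47 and 5.39 in WT. Cxcl10 and this list were both highest in KO replicate 3 and fell in the same order over the WT pools, with replicate 1 highest and replicate 3 lowest. Their lowest KO pools differed, replicate 1 for Cxcl10 and replicate 2 for the list.

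**Figure D5:**
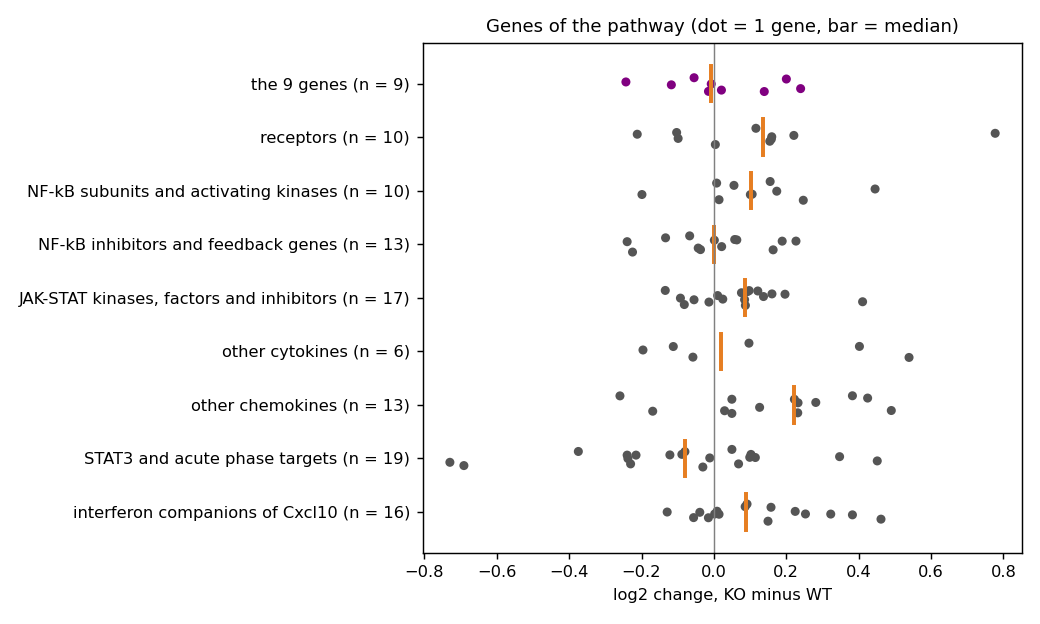
Log2 change, KO minus WT (x axis), of each gene tested in the 8 pathway lists and in the 9 genes (purple), with the median of each list as an orange bar. The 9 genes lay between -0.24 and 0.24 with a median near 0, and Osmr is the receptor at 0.78.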

How the data were processed

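Total RNA of 6 liver pools was labelled with a 3′ kit and read on 1 array per pool (Affymetrix MG-430 PM), per the labels' protocols. The deposited log2 values were made by the authors with RMA (background subtraction, quantile normalization and probe summary); affy, RMA and limma are named in the submitters' processing notes, whereas the sources used here give neither versions nor a build. A shift of most genes in 1 direction would be reduced by this normalization, and the number of arrays limits the precision.

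The genotypes were compared, KO minus WT, with limma 3.58.1 in R 4.3.3 (lmFit and eBayes, two-sided), and p-values were adjusted by Benjamini-Hochberg over 12466 genes. The fit was checked on simulated data for false calls, bias and the share of changes found. The requirement on that share was lowered after a simulation had missed it, so it is no independent check, and most changes of 0.5 log2 units were missed. For each gene the probe set of highest mean was used, and genes whose mean lay under the 40th percentile were left out as dim. The genes, lists and tests were chosen with earlier results of these data known. Named are the 9 genes with every probe set, the 3 genes of smallest p in each pathway list, the 2 nearest profiles for each gene, Nrg4, and marker or dim genes by list. The 2-fold limit for near background, the comparison of spreads and Tnfaip3, Orm2, Saa2, Saa3 and Lcn2 were chosen after values were seen. Of the marker lists whose levels are not given in the text, sinusoidal endothelium had a median log2 change of 0.31 and stellate cells of 0.18. It was -0.04 for T and NK lymphocytes, 0.09 for B lymphocytes and -0.0042 for hepatocytes. The lists of neutrophils and monocytes had 0.23 and 0.22, with 0 genes called in each of these lists. The alternatives changed the normalization, the centring, the filter (none, or the 60th percentile), the variance prior, the array weights, the use of several probe sets, the arrays included and the blocking by replicate number. Figures were drawn with matplotlib 3.10.9.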

Additional observations from a re-analysis of the deposited data

How the results depend on the processing

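Under 15 alternative settings the 9 genes gave 133 changes, since Tnf and Ccl2 fell out under the filter at the 60th percentile. Of these, 0 were called, 118 kept their direction, 15 turned, and the lowest adjusted p was 0.216. Settings that changed only the filter, the variance prior or the blocking, or fitted every probe set, left the log2 change of a main probe set as it was. Directions could not turn under those settings, so part of the 118 was fixed in advance. Tnf, Il1b, Ccl2 and Stat3 kept their direction throughout, each by its main probe set or the mean of its probe sets. The other Stat3 probe set, at -0.17, went the opposite way, and the mean of both gave 0.016. With array weights Cxcl1 turned to 0.26, Cxcl10 to 0.025 and Nfkbia to 0.066, and the median of the 9 genes moved to 0.17. With the mean of all probe sets Il1rn turned to 0.10. Leaving out 1 array, the log2 changes ranged between -0.37 and 0.24 for Cxcl1, -0.35 and 0.16 for Cxcl10, -0.092 and 0.13 for Nfkbia, -0.19 and 0.21 for Socs3, and -0.10 and 0.039 for Il1rn, and the median of the 9 genes between -0.056 and 0.16. All genes called numbered 5, and 8 with quantile normalization again, 3 with the filter at the 60th percentile, 29 with a variance trend, 50 with array weights, 3 with the mean of all probe sets, and between 1 and 17 with 1 array left out, the most without KO replicate 1. Of the pathway genes 0 were called, 1 with array weights, and between 0 and 1 with 1 array left out, Osmr in both cases. The cause was not tested. With the replicate number as a block, 2 genes were called in all and 0 of the 9. Same-numbered arrays had correlations of deviations of -0.15, 0.033 and -0.009, and differently numbered ones lay between -0.17 and 0.16. Deviations from means of 3 arrays cannot decide whether the numbers pair the pools. Signal near background limits what can be said of Tnf, Ccl2 and Socs3. The same holds for Ccr2, Nfkbid, Tnfsf10, Lta and Irf8 among the named pathway genes.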
